A study of Homo sapiens with 2 samples.

Results

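SR proteins and heterogeneous nuclear ribonucleoproteins (hnRNPs) are the 2 large families of RNA-binding proteins that regulate which exons are kept in messenger RNA. The 33 genes described here were given as a list of symbols, with no threshold on their values, though the list was drawn up with earlier results of these data known: SRSF1 to SRSF11, TRA2A, TRA2B, 19 HNRNP genes and PTBP1, which is also known as hnRNP I. All 33 symbols matched a gene ID among the 63677 gene IDs of the count tables. The cells were MDA-MB-231, an established line of human breast cancer that lacks the estrogen and progesterone receptors and HER2 amplification. RNA sequencing gave 1 library labelled control and 1 labelled Carpesium cernuum extract (CCE), a plant extract given at 1 µg/mL over 24 h. The protocol text on both samples names the CCE treatment, so the groups follow each sample's treatment field, and no vehicle is named for the control.

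SR proteins carry RNA recognition motifs and a tail of arginine and serine repeats. They bind exonic enhancers and recruit the spliceosome, and kinases of the SRPK and CLK families phosphorylate the tail and thereby set their location and activity. Many hnRNPs bind silencer elements and oppose them, while others bind pyrimidine tracts, guanine runs or uridine tracts and can either promote or block exon use depending on position. Both families also regulate their own transcripts by splicing in exons that send the transcript to nonsense-mediated decay.

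Gene counts totalled 5633569 for the control and 34884501 for CCE. Levels are given in CPM, a gene's counts scaled to the gene total and per 1e6, and 1 count equals 0.178 CPM in the control but 0.0287 CPM in the deeper CCE library. Each group is 1 library, so the treatment has no replicate check and was not tested. Ratios are CPM in the CCE library over CPM in the control library, with exact 95% Clopper-Pearson intervals, which hold counting error alone. Genes with a mean of 1 CPM or more over both libraries (14423) counted as measured. Higher or lower by at least 1.5-fold (a log2 ratio past 0.58) was called when a ratio passed that fold and its interval excluded a ratio of 1. The cell line's markers VIM, CD44, KRT18, KRT8 and AXL lay between 173 and 3690 CPM in the control and between 130 and 1824 CPM with CCE, while ESR1 had 0 counts in both. Of the marker genes of fibroblasts, leukocytes, endothelial cells and hepatocytes that matched an ID, none exceeded 0.745 CPM in either library. Records with more than 1 alignment took 11.6% of the control and 17.3% of the CCE library.

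Most of the splicing regulators were somewhat lower in the CCE library, and the hnRNP A, B and D genes had the lowest median of the 6 role groups. Of the 33 members 32 were measured. The exception was SRSF8, an intronless relative of SRSF2, whose ID (ENSG00000263465) was listed at 0 counts in both libraries, which allows up to 0.533 and 0.0860 CPM for that ID. The ID comes from release 44 of GENCODE and the release behind the counts is not known here, so reads of SRSF8 may be counted under another ID and the 0 says nothing of the gene's level. Among the 32, 23 had a log2 ratio below 0, whereas 43.2% of all measured genes did. The interval lay below 0 for 22 members and above 0 for 4, against 22.8% and 32.8% of all measured genes. Intervals are narrower at higher counts. The median control level was 216 CPM for the members and 30.7 CPM for measured protein-coding genes, so these interval shares are not compared at like counts. The median log2 ratio of the members was -0.24, against 0.09 over all measured genes, and the middle 50% of members lay between -0.51 and 0.01. HNRNPA1, HNRNPD, HNRNPH3, TRA2A and HNRNPA3 were at least 1.5-fold lower (5 of 32, 15.6%, where 10.3% of all measured genes and 9.9% of protein-coding ones were). Only SRSF11 of the 32 was at least 1.5-fold higher (3.13%, where 13.6% and 13.1% were). None of the 32 passed 2-fold in either direction, which 4.52% of measured genes did downward and 4.86% upward.

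The number of lower members depended on the scaling. It was 7 by TMM factors, by DESeq2 size factors and by a total without mitochondrial genes, with HNRNPDL and HNRNPH1 added, and 9 by the upper quartile, with SRSF2 and HNRNPA2B1 added as well. Of all measured genes 11.3% were called lower under each of the first 3. Under the upper quartile 12.6% were lower and 10.5% higher, which turns the overall split of 10.3% and 13.6% around. SRSF11 was the single member called higher under each of these scalings. Summed over the members, the counts made up 0.779% of gene counts in the control library (0.772% to 0.786%) and 0.634% in the CCE library (0.631% to 0.636%). The 20 hnRNP genes, PTBP1 among them, took 0.606% and 0.472%, and the SR and SR-like genes 0.173% and 0.162%.

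**Figure D1:**
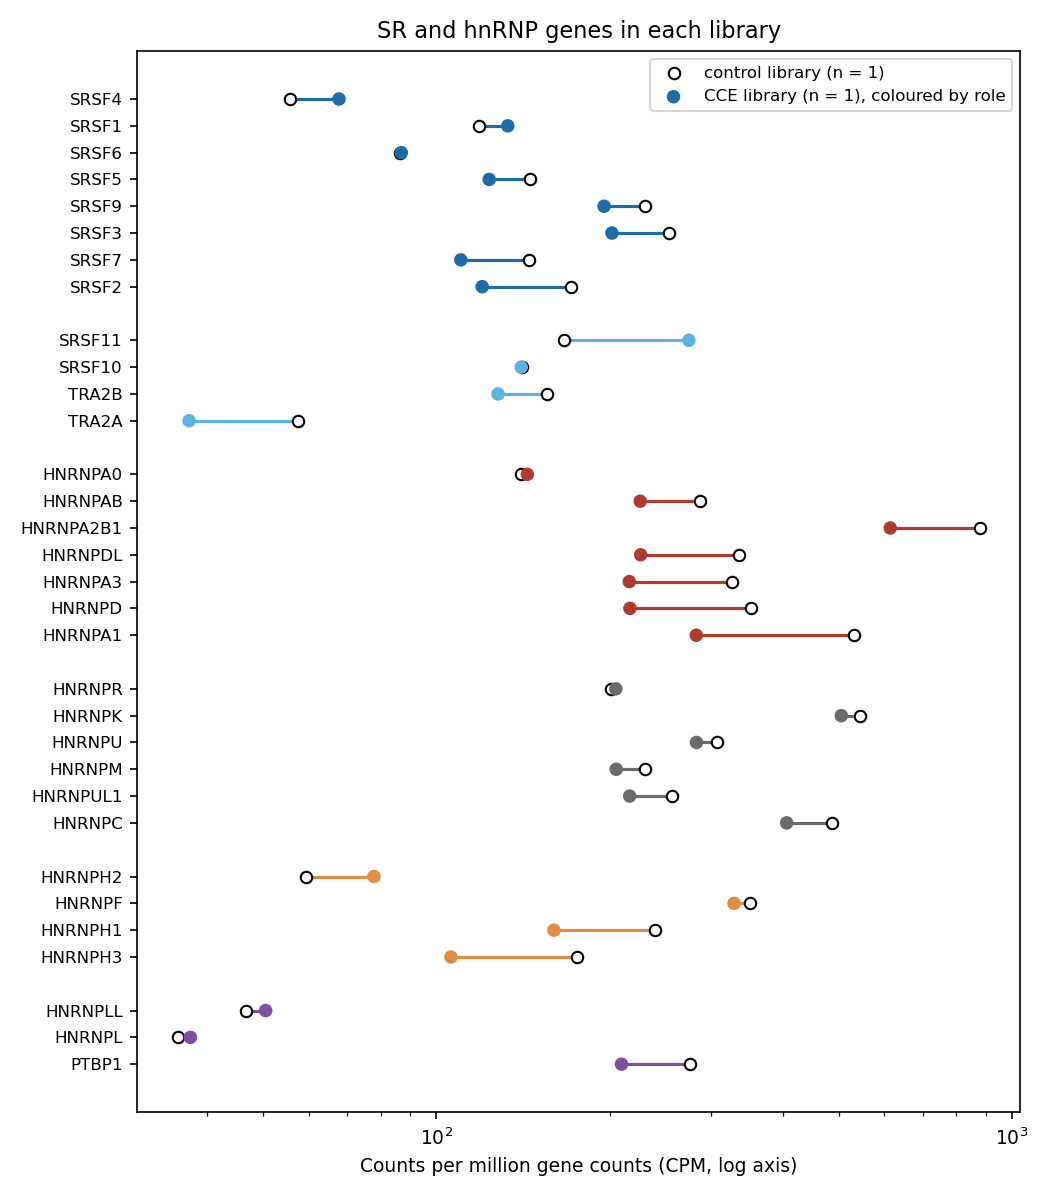
Level of each measured gene in CPM (log axis) in the control library (open circles) and in the CCE library (filled circles, coloured by role), with 1 library per group and no error bar. The filled circles of the hnRNP A, B and D genes lie to the left of the open ones for all but HNRNPA0, while that of SRSF11 lies to the right.

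The canonical SR proteins split into lower, level and slightly higher genes, and none of the 8 measured passed 1.5-fold. SRSF2, a speckle protein that binds exonic enhancers, had 966 counts (171 CPM) in the control and 4190 counts (120 CPM) in the CCE library, a log2 ratio of -0.51 (-0.61 to -0.41). Of its merged exon length, 27.7% is shared with other genes, chiefly MFSD11 on the opposite strand. SRSF7, which carries a zinc knuckle beside its RNA recognition motif, went from 145 to 110 CPM (-0.39, -0.50 to -0.28). SRSF3, the smallest family member and a regulator of both splicing and mRNA export, had 254 and 202 CPM (-0.33, -0.41 to -0.25). These 3 were the lowest of the canonical group, and SRSF9 (-0.24) and SRSF5 (-0.23) were also below 0 beyond counting error.

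SRSF1, the founding SR protein and a known oncogenic splicing factor, had 669 counts (119 CPM) in the control and 4642 counts (133 CPM) in the CCE library, a log2 ratio of 0.16 (0.05 to 0.28). SRSF4, whose arginine-serine tail is long, had 55.7 and 67.7 CPM (0.28, 0.11 to 0.46). By the authors' FPKM values, described further on, both lay lower with CCE, SRSF1 at 46.1 and 1.98 and SRSF4 at 19.8 and 2.85. SRSF6, a close relative of SRSF4, stood at 86.6 and 86.9 CPM, with an interval of -0.13 to 0.15 around a log2 ratio of 0.00. Of the SRSF1 exon length, 35.1% is shared with other genes, chiefly an unnamed gene on the same strand (ENSG00000266086). For SRSF9 46.7% is shared with other genes, chiefly GATC on the opposite strand. The balance of SRSF1 and SRSF2 differed between the libraries: there were 0.693 SRSF1 counts per SRSF2 count in the control and 1.11 with CCE, a 1.60-fold larger ratio (1.44 to 1.78). A ratio of 2 genes within a library does not depend on the scaling. It was computed for 15 pairs of members chosen with their values known, and its interval excluded 1 in 13 of them. The share among other pairs of genes was not computed, so the 13 have no background to be read against.

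The SR-like proteins held both ends of the SR side. SRSF11, a nuclear arginine-serine protein that binds core splicing factors, lies on chromosome 1 from 70671365 to 70718735 (GRCh37, plus strand). It had 937 counts (166 CPM) in the control and 9579 counts (275 CPM) in the CCE library and was 1.65-fold higher (1.54 to 1.77). None of its exons overlaps another gene in the annotation used. By the authors' FPKM values it lay lower in the CCE library (32.7 against 25.5). SRSF10, a repressor of splicing when dephosphorylated, had 141 and 140 CPM, so the number of SRSF11 counts per SRSF10 count was 1.66-fold larger in the CCE library (1.49 to 1.83).

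TRA2A and TRA2B, paralogs that activate exons through purine-rich enhancers, were both lower. TRA2A had 324 counts (57.5 CPM) and 1297 counts (37.2 CPM), 1.55-fold lower (1.37 to 1.75), and TRA2B had 156 and 128 CPM, a log2 ratio of -0.28 (-0.39 to -0.18). The TRA2A count per TRA2B count changed 0.786-fold (0.681 to 0.909), so TRA2A was the lower of the pair beyond counting error.

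**Figure D2:**
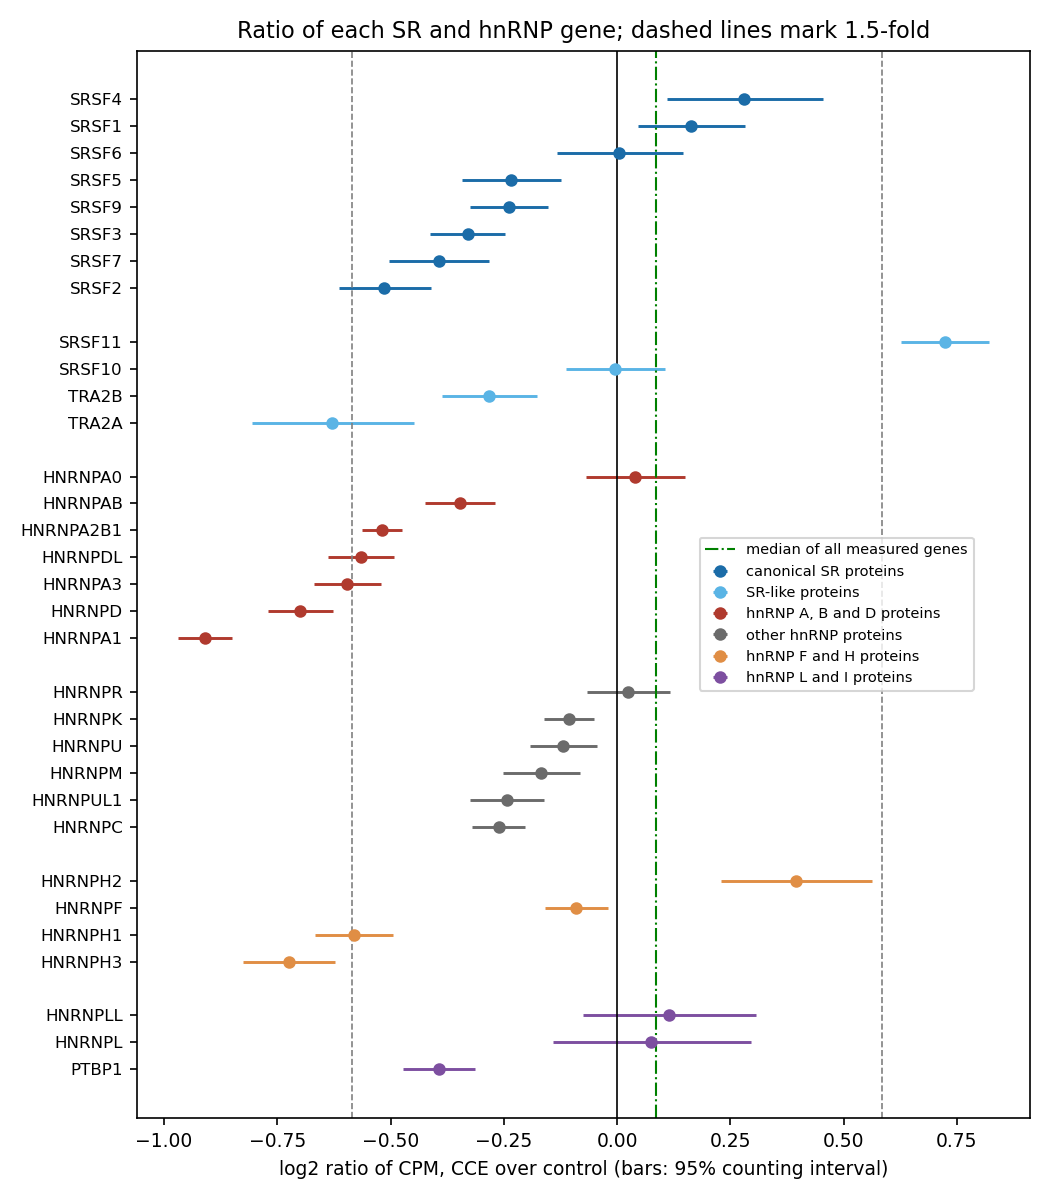
log2 ratio of CPM, CCE over control, for each measured gene, with its 95% counting interval (1 library per group). Dashed lines mark 1.5-fold, and the green line the median of all measured genes (0.09). 5 genes lie to the left of the lower dashed line and SRSF11 alone to the right of the upper one.

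In the hnRNP A, B and D group, 6 of 7 genes were lower beyond counting error (22.8% of all measured genes were), 3 of them at least 1.5-fold (10.3% were), and the median log2 ratio was -0.57. The share beyond counting error is again not compared at like counts. HNRNPA1, an abundant silencer-binding protein that shuttles between nucleus and cytoplasm, had 2995 counts (532 CPM) in the control and 9868 counts (283 CPM) in the CCE library. It was 1.88-fold lower (1.80 to 1.96), the lowest of the 32 members. The authors' FPKM values put it the other way, at 23.4 in the control and 84.6 with CCE. HNRNPD, which encodes the AU-rich element binding protein AUF1, went from 1984 counts (352 CPM) to 7567 counts (217 CPM), 1.62-fold lower (1.54 to 1.71). HNRNPA3 went from 327 to 216 CPM, 1.51-fold lower (1.44 to 1.59). In the annotation used, 54.8% of its merged exon length is shared with other genes, mostly NFE2L2 on the opposite strand.

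The relatives followed at smaller ratios. HNRNPDL, the paralog of HNRNPD, had 335 and 226 CPM (log2 ratio -0.57, -0.64 to -0.49). HNRNPA2B1, the member with the most counts, had 4961 counts (881 CPM) and 21441 counts (615 CPM), a log2 ratio of -0.52 (-0.56 to -0.47). HNRNPAB stood at -0.35 (-0.42 to -0.27). HNRNPA0, a single-exon gene of the same family, had 140 CPM in the control and 144 CPM with CCE (0.04, -0.07 to 0.15). The HNRNPA0 count per HNRNPA1 count was 0.263 in the control and 0.509 with CCE, 1.93-fold larger (1.77 to 2.11).

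HNRNPA1 has 74 pseudogenes named after it in the annotation, more than any other member, so its count is uncertain. Exact repeats were counted over windows of 50 bases along the canonical transcript. Of the 1067 coding windows of HNRNPA1, 83.2% occur exactly elsewhere in the genome, and of the windows over its whole transcript 40.1% do.

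Members with many such windows were found at low and at level ratios. For SRSF10 89.8% of windows occur elsewhere, at a log2 ratio of -0.00, and for HNRNPC and HNRNPK 33.6% and 30.3%, at -0.26 and -0.11. Of the 5 members at least 1.5-fold lower, HNRNPA1 and HNRNPA3 have 40.1% and 35.6% of windows elsewhere. HNRNPD, HNRNPH3 and TRA2A have 1.26%, 0.390% and 0%. Called lower were 2 of the 6 members with at least 20% of windows elsewhere and 3 of the 26 with fewer. Across the 32 members Spearman's rho between the window share and the log2 ratio was -0.04, a description over genes of the same 2 libraries. Between the number of named pseudogenes and the log2 ratio rho was -0.31, and between the mean CPM and the log2 ratio -0.40. What part pseudogenes or level had in the ratios was not tested. The 26 members with under 20% of windows elsewhere had a median log2 ratio of -0.24, as did all 32. With the counts of the named pseudogenes added to it, HNRNPA1 had a log2 ratio of -0.89 against -0.91 without them. These added counts were only 76 in the control and 397 with CCE. Records with more than 1 alignment stand in a row that names no gene, so this sum leaves them out and cannot show their part. The part of records with several alignments, which were 11.6% and 17.3% of the libraries, in the HNRNPA1 ratio was not tested.

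**Figure D3:**
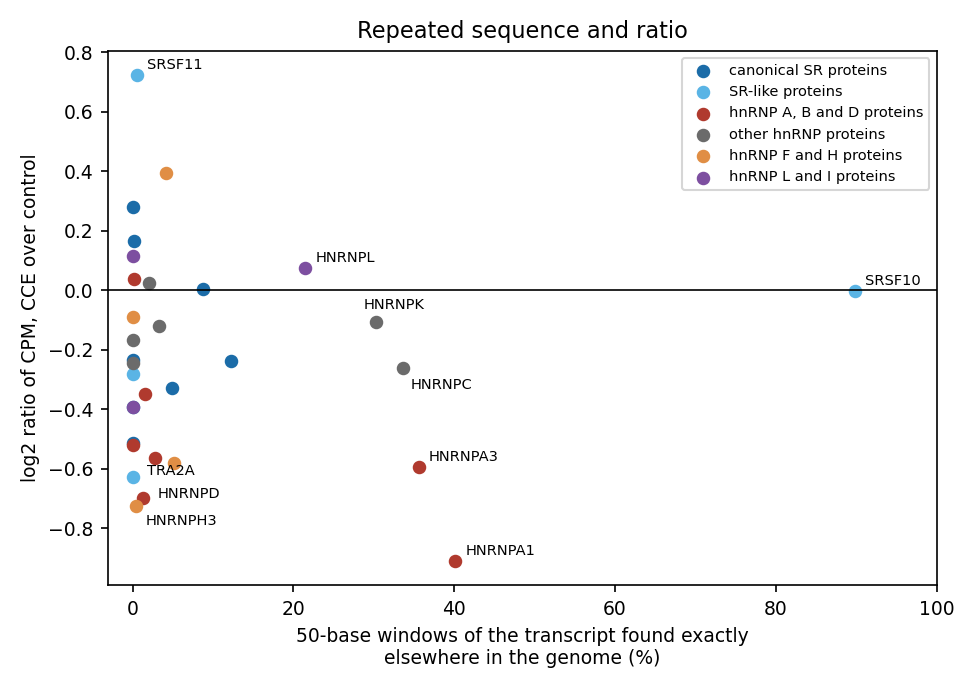
Share of the 50-base windows of each canonical transcript that occur exactly elsewhere in the genome (x axis, %) against the log2 ratio of CPM, CCE over control (y axis), 1 point per measured gene. HNRNPA1 and HNRNPA3 combine a high share with a low ratio, while SRSF10 has the highest share (89.8%) at a ratio near 0.

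Of the hnRNP F and H genes, which bind runs of guanines, HNRNPH3 and HNRNPH1 were lower and HNRNPH2 was higher. HNRNPH3 went from 987 counts (175 CPM) to 3698 counts (106 CPM), 1.65-fold lower (1.54 to 1.77), although the authors' FPKM values had it at 21.1 and 25.1. HNRNPH1 had 1349 counts (239 CPM) and 5583 counts (160 CPM), a log2 ratio of -0.58 (-0.67 to -0.49), just inside the threshold. HNRNPH2, the near-identical X-linked paralog of HNRNPH1, had 334 counts (59.3 CPM) and 2718 counts (77.9 CPM), a log2 ratio of 0.39 (0.23 to 0.56). HNRNPF was close to level, at 350 and 329 CPM (-0.09, -0.16 to -0.02).

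Within this family the balance between paralogs differed between the libraries. The control library had 0.248 HNRNPH2 counts per HNRNPH1 count and the CCE library 0.487, a 1.97-fold larger ratio (1.73 to 2.24). The HNRNPF count per HNRNPH1 count was 1.41-fold larger (1.30 to 1.52). Only 4.18% of HNRNPH2 windows and 5.11% of HNRNPH1 windows occur exactly elsewhere. However, 15.8% of the HNRNPH2 exon length is shared with other genes, chiefly the read-through gene RPL36A-HNRNPH2 on the same strand, so the HNRNPH2 count is uncertain.

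The other hnRNP genes differed little. HNRNPC, whose protein binds uridine tracts on nascent transcripts, had 487 and 406 CPM (-0.26, -0.32 to -0.20). HNRNPUL1 stood at -0.24, HNRNPM, which binds GU-rich sites, at -0.17, and HNRNPU, a chromatin-bound scaffold protein, at -0.12, each below 0 beyond counting error. HNRNPK, which binds cytosine-rich tracts, had 544 and 505 CPM (-0.11, -0.16 to -0.05), and HNRNPR 201 and 205 CPM (0.02, -0.07 to 0.12).

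PTBP1, the repressor that binds pyrimidine tracts, was lower, with 1551 counts (275 CPM) in the control and 7316 counts (210 CPM) in the CCE library, a log2 ratio of -0.39 (-0.47 to -0.31). HNRNPL, which binds CA repeats, had 35.5 and 37.4 CPM and its paralog HNRNPLL 46.7 and 50.5 CPM. Both intervals included 0 (-0.14 to 0.30 and -0.07 to 0.31), and at 200 and 263 control counts they were among the widest of the 32.

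Levels of different genes were compared per kilobase of merged exons. HNRNPAB was the highest at 136 CPM per kb in the control and 107 CPM per kb with CCE, followed by HNRNPF (107 and 101) and HNRNPK (95.4 and 88.6) in both. HNRNPL was the lowest at 5.47 and 5.76 CPM per kb. SRSF11 was at rank 23 of the 32 in the control and 13 with CCE, HNRNPA1 at rank 4 and 7, and HNRNPD at rank 10 and 15. Merged exons include those of minor isoforms, so genes with many annotated isoforms appear lower on this scale.

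Decay-targeted isoforms are common in these genes. Of the 32 measured members 27 have at least 1 annotated transcript of the nonsense-mediated decay class (84.4%, against 48.4% of 11635 measured protein-coding genes), and 26 have a retained-intron transcript (81.3% against 61.7%). These shares were not matched for level or for the number of annotated transcripts, which is 84 for HNRNPA1. HNRNPA2B1 has 35 decay-class transcripts and HNRNPA1 18, and HNRNPH1 has 19 with a retained intron. Counts per gene sum over such isoforms, so a lower count cannot be assigned to coding or decay-targeted transcripts. The canonical transcripts of the members had a median GC content of 41.7%, against 47.8% for measured protein-coding genes. Across 11571 of those genes the log2 ratio went down with GC content (Spearman's rho -0.23), and across the 32 members rho was -0.10. The part of GC content in the members' ratios was not tested.

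The promoters of HNRNPD and HNRNPH3, which were lower, and of SRSF11, which was higher, are shown for comparison of their makeup. Each run holds the 250 bases before the RefSeq start, read toward the gene, and was placed on GRCh37 by exact match. The RefSeq promoters listed for HNRNPD, HNRNPH3 and SRSF11 were 1, 3 and 2, and those shown lie directly before the start of the canonical transcript. Capitals mark matches to 7 motifs, searched on either strand. The first was CCAAT, bound by NF-Y. The second was the GC box GGGCGG. An ETS site was taken as CCGGAAG. For the factor YY1 the letters were AAGATGG. The TATA box was searched as TATAAA. As an E-box served CACGTG. The antioxidant response element was TGACNNNGC. A further motif was searched and is not reported here. No matches overlap in the 3 runs.
HNRNPD, chr4:83295145-83295394, minus strand: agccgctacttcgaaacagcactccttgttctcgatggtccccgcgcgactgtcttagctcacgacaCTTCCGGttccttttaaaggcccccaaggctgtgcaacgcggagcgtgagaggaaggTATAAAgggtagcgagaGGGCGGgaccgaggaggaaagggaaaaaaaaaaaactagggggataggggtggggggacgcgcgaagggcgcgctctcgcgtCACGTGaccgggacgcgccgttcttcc
HNRNPH3, chr10:70091571-70091820, plus strand: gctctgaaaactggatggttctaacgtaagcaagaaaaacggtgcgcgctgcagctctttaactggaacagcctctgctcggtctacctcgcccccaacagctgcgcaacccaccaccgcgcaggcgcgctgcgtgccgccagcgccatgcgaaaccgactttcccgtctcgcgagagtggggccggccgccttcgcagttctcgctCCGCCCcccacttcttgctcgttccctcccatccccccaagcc
SRSF11, chr1:70686813-70687062, plus strand: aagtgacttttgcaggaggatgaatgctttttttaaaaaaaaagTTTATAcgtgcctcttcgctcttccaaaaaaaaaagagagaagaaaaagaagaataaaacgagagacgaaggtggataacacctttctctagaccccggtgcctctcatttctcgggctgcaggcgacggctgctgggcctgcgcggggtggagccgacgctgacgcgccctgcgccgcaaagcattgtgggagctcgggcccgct
The HNRNPD run holds an ETS match, a TATA match, a GC box and an E-box, the HNRNPH3 run a GC box, and the SRSF11 run a TATA match alone. The GC contents of the 3 runs are 60.0%, 64.0% and 52.0%.

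The RefSeq table held 45 promoters for 30 of the 33 members, and 35093 promoters in all. CCAAT occurred in 21 of the 45 (46.7%, where 11229 of all 35093 held it) and GGGCGG in 27 (60.0% against 42.6%). CACGTG was found in 7 of the 45 (15.6% against 6.34%), in entries of HNRNPA3, HNRNPD, HNRNPDL, HNRNPH2, HNRNPH3 (not the run shown) and HNRNPM. Of these genes 5 had log2 ratios between -0.72 and -0.17 and HNRNPH2 had 0.39, where 23 of all 32 measured members were below 0. No link between a motif and the ratios was tested. TGACNNNGC was present in 6 of the 45 (13.3% against 10.9%), CCGGAAG in 5 (11.1% against 8.52%), TATAAA in 6 (13.3% against 10.7%) and AAGATGG in 0 (against 3.70%).

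Genes of the wider splicing machinery had a median close to that of all genes. The 6 further lists held 134 genes, of which 124 were measured, with a median log2 ratio of 0.10. Of these 17 were at least 1.5-fold higher and 6 lower (13.7% and 4.84%), set against the 13.6% and 10.3% of all measured genes. The 7 measured hnRNP relatives outside the members came closest to the members. Their median was -0.18 and 6 of 7 were below 0, with none past 1.5-fold: the poly-C binding protein genes PCBP1 and PCBP2 stood at -0.58 (-0.65 to -0.50) and -0.38 (-0.50 to -0.26), HNRNPUL2 at -0.30 and SYNCRIP at -0.18. These 4 share from 27.1% (SYNCRIP) to 73.2% (PCBP1, chiefly with its antisense gene) of their exon length with other genes.

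Genes for proteins that modify or import SR and hnRNP proteins were mostly above 0. Of 11 measured kinases and importers, 9 had a log2 ratio above 0 (56.8% of all measured genes did), with 6 intervals above 0 and 4 spanning it. At least 1.5-fold higher were 2 of the 11 and lower 0 (median 0.23), so the share higher, 18.2%, was near the 13.6% of all measured genes. TNPO3, the importer of SR proteins, had 233 counts (41.4 CPM) in the control and 2442 counts (70.0 CPM) in the CCE library, 1.69-fold higher. TNPO1, the importer of hnRNP A1, had 179 and 287 CPM, 1.60-fold higher. The kinase genes CLK4 and DYRK1A stood at 0.48 (0.09 to 0.88) and 0.29 (0.04 to 0.55), within 1.5-fold. SRPK1 and SRPK2, named after their values were seen, also had intervals above 0 (log2 ratios 0.10 and 0.27). By the authors' FPKM values, described further on, both were below 0 (-1.18 and -1.01), while TNPO1, TNPO3, CLK4 and DYRK1A were above.

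SR-related proteins of nuclear speckles had a median of 0.24, with 5 of 23 measured genes at least 1.5-fold higher and 0 lower (21.7% and 0%, against 13.6% and 10.3% of all measured genes). ZRANB2, a zinc finger splicing regulator, went from 51.8 to 104 CPM, 2.01-fold higher, and SREK1, SCAF11 and PPIG stood at 0.76, 0.70 and 0.62. Among 46 core spliceosome genes the median was 0.11, with 5 at least 1.5-fold higher and 3 lower (10.9% and 6.52%, neither above the 13.6% and 10.3% of all measured genes). The helicase gene DDX46 was the lowest at -1.05 (-1.15 to -0.94), from 169 to 81.6 CPM, followed by the U1 protein gene SNRPA (-0.81) and SF3A2 (-0.74), while the helicase gene DHX38 stood at 0.80 (0.59 to 1.02).

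Nonsense-mediated decay and exon junction genes had the highest median of the 6 lists, 0.32, with 5 of 14 measured genes at least 1.5-fold higher and 2 lower (35.7% and 14.3%, against 13.6% and 10.3%). UPF3B, which links exon junctions to decay, had 170 counts (30.2 CPM) in the control and 2824 counts (81.0 CPM) in the CCE library, 2.68-fold higher. SMG8 was 2.12-fold higher and UPF2 1.85-fold. In the remaining list of alternative splicing regulators the median was -0.05. Of its 23 measured genes 1 was at least 1.5-fold lower, KHDRBS3 at -0.66 (-0.98 to -0.32), and 0 were higher: KHDRBS1 and CELF2 stood at -0.44 each, and MBNL2 at 0.50. The IDs matched to TAF15 and RBM8A were listed at 0 counts in both libraries, as that of SRSF8 was; their reads may likewise be counted under other IDs, and no level is given for them.

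**Figure D4:**
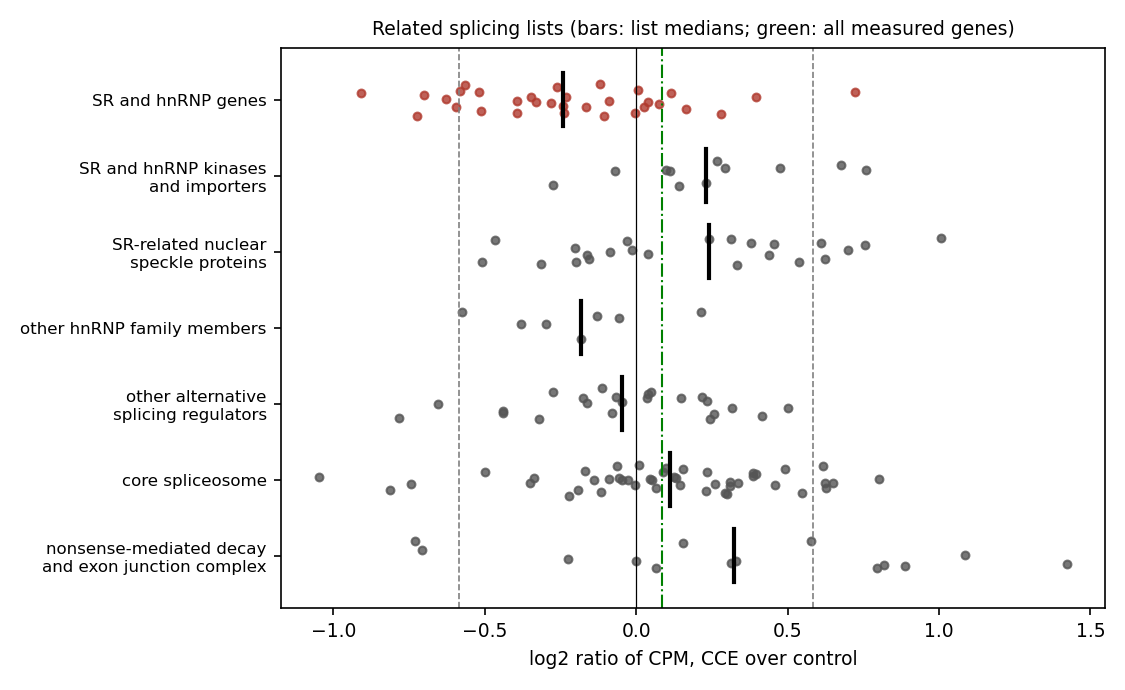
log2 ratio of CPM, CCE over control, of each measured gene in the SR and hnRNP set and in the 6 related lists (1 point per gene, spread vertically for visibility; black bars are list medians, the green line the median of all measured genes, dashed lines 1.5-fold). The SR and hnRNP genes have the lowest median (-0.24) and the decay and exon junction genes the highest (0.32).

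The authors' FPKM values, summed per gene over unnamed rows, gave a different picture of the same genes. On the log2(FPKM + 1) scale 26 of the 32 members were below 0, with a median of -0.80 against -0.07 over 12841 measured genes above 0 FPKM in a library, 53.4% of which were below 0. FPKM were not rescaled, and over all rows they summed to 375876 in the control and 270236 with CCE, a log2 ratio of -0.48. Of the members 17 were at least 1.5-fold lower (27% of those genes were). At least 1.5-fold higher were HNRNPA1 and HNRNPL (23.9% of those genes). Of the members 7 were at least 4-fold lower and 0 higher, against 5.35% and 6.21% of those genes. All 7 of these, SRSF1, SRSF2, SRSF4, SRSF7, HNRNPA2B1, HNRNPK and HNRNPM, were within 1.5-fold by counts. HNRNPK was listed at 124 and 2.11 FPKM, beside 544 and 505 CPM. SRSF7 was listed at 47.9 and 0.384 FPKM, beside 145 and 110 CPM.

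For some genes the difference sat in the highest row. Of the 9 rows of SRSF1 the highest held 37.9 FPKM in the control and 0.388 with CCE, and the highest of the 16 rows of HNRNPM held 56.3 and 0. The direction by FPKM and by counts was the same for 23 members and opposite for 9. HNRNPA1, HNRNPH3 and SRSF3 were below 0 by counts and above by FPKM (1.81, 0.24 and 0.28). SRSF1, SRSF4, SRSF6, SRSF11, HNRNPA0 and HNRNPLL were above 0 by counts and below by FPKM (-3.98, -2.43, -0.14, -0.35, -0.10 and -0.19). Across the 32 members Spearman's rho between both log2 ratios was 0.15. Per kilobase, CPM and FPKM correlated across the members with rho 0.72 in the control and 0.37 with CCE. Of the genes named above, DHX38, SCAF11, CELF2, SRPK1 and SRPK2 also had opposite signs by FPKM (-0.93, -0.23, 1.52, -1.18 and -1.01). The rows carry no transcript names, so isoform shares were not derived from them.

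**Figure D5:**
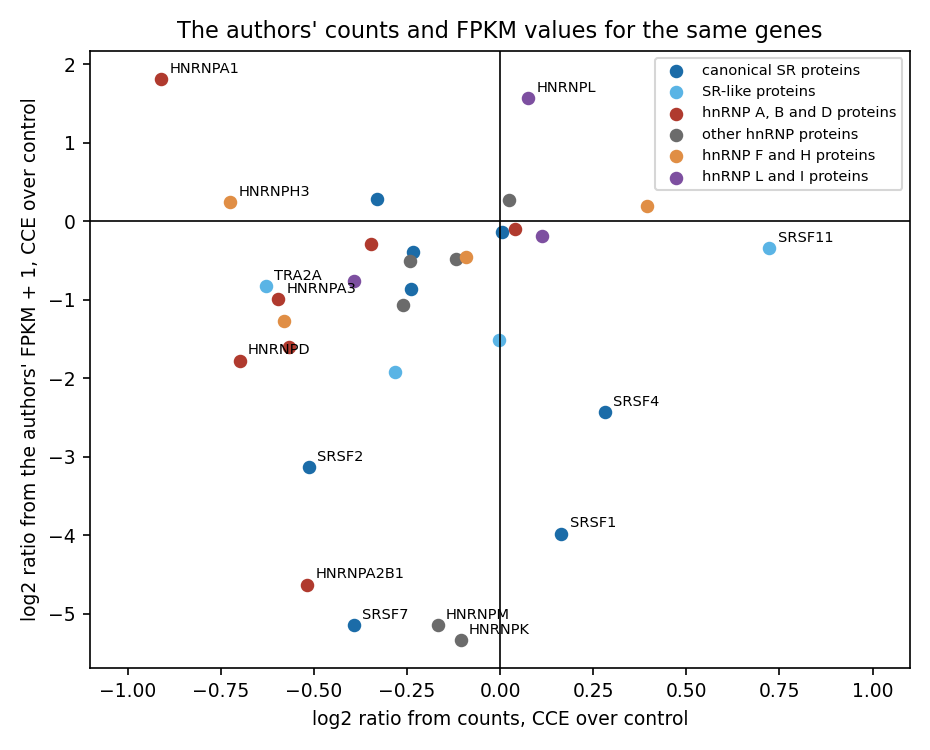
log2 ratio from counts (x axis) against the log2 ratio from the authors' FPKM + 1 (y axis), CCE over control, 1 point per measured gene. 7 genes with count ratios within 1.5-fold lie below -2 by FPKM, and HNRNPA1 is below 0 by counts and above 0 by FPKM.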

How the data were processed

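The authors deposited raw counts per Ensembl gene and FPKM values for each library. Per the submitters' processing notes, HISAT2 was used, with builds listed as hg19 and GRCh37. How reads were counted, whether by strand, on which annotation, and how FPKM was estimated: not given in the sources used here. In each count table the last 5 rows name no gene (62.9% of 15198936 records in the control, 66.8% of 105168383 in the CCE library) and were left out. The deposited FPKM tables hold 215170 rows with repeated gene IDs, summed here per gene; their depth is unknown.

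Symbols, exons and transcripts came from GENCODE release 44 on GRCh37, which holds 55665 of the 63677 IDs; where strand is not stated, reads of overlapping antisense genes cannot be told apart. Counts were scaled to each library's gene total. Intervals are Clopper-Pearson (Python 3.11.15 with scipy 1.17.1); ratios of 2 genes used the conditional odds ratio. Because reads copied by PCR are not separate molecules, these intervals, and the limit of 3 counts set for a 0, hold counting error alone. TMM and upper-quartile factors came from edgeR 4.0.16 and size factors from DESeq2 1.42.0 in R 4.3.3, for scaling only. The interval and call procedure was run on simulated data with counting error alone. That run says nothing of variation between libraries. Every member is named; of each related list, the 4 with the largest absolute log2 ratio were named, if their mean reached 5 CPM and their interval left out 0, so that some genes past 1.5-fold, such as SON and SF3B1, are counted but not described. Members and lists were chosen with earlier results of these data known. Promoter sequences are from RefSeq. A gene of the related lists that the naming rule picked and a sequence are not reported here.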

Additional observations from a re-analysis of the deposited data

How the results depend on the processing

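No paired analysis was possible because each group has 1 library; for the same reason no library could be left out. The count of members at least 1.5-fold lower, 5 of 32, was 9 (10 with the higher one) under upper-quartile scaling, which shifts every log2 ratio by -0.08, and 7 under the other scalings; the median stayed between -0.32 and -0.24. At 2-fold it was 0 in each direction (0 in all). Over the 16 members whose exons overlap no other gene it was 2 (3 with the higher one). By FPKM, with a pseudocount of 1 or 0.1, 17 were lower and 2 higher (19 in all), and the median was -0.80 or -0.83. HNRNPA1 (1.81 and 1.85), HNRNPH3 (0.24 and 0.25) and SRSF11 (-0.35 and -0.36), called by counts, had the opposite sign by FPKM, as did 6 members within 1.5-fold by counts, SRSF1 (-3.98) and SRSF4 (-2.43) most; the cause was not tested. A minimum of 5 CPM or none altered nothing here. The last 2 alternatives were chosen after seeing the data. Adding pseudogene counts, which hold no records with more than 1 alignment, kept 5 lower. Leaving out 6 members with at least 20% of windows elsewhere left 3. Isoform shares, planned if rows named transcripts, were not run. Depth limits HNRNPL most: its interval spans -0.14 to 0.30.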
